A study of Mus musculus with 17 samples.

Results

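Malat1 is a long noncoding RNA that is made and kept in the nucleus, and it was followed here in every deposited cluster and cell type label of a single-nucleus RNA data set from mouse brain. It was chosen by name, as 1 gene of 26131 in the deposited count matrix. The values are its share of the UMIs (unique molecular identifiers, each standing for 1 captured RNA molecule) of each animal in each cluster, and its count in single nuclei. All 17 mice were female, 2.3 months old and homozygous for a knock-in of the human transferrin receptor (TfR). The tissue was posterior brain. The 4 groups received Saline (n = 4), Malat1 ASO, the free antisense oligonucleotide, at 2 mg per kg (n = 4), anti-TfR:Malat1, the oligonucleotide joined to an antibody against TfR, at 50 mg per kg (n = 6), or OTV:Malat1, the oligonucleotide on a TfR-binding transport vehicle, at 50 mg per kg (n = 3). Dosing was intravenous, 4 times within 24 days, and the brains were collected 72 hours later. The mass of oligonucleotide within a dose of 50 mg per kg is not stated in the sources used here.

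Antisense oligonucleotides of this kind pair with their target RNA, and RNase H then cuts the RNA strand of the pair. Since RNase H works in the nucleus, a nuclear RNA such as Malat1 is a common test target. TfR carries iron-loaded transferrin into cells and is abundant on brain capillary endothelium, which is why it is used to bring large molecules across the blood-brain barrier. Malat1 gathers at nuclear speckles, where splicing factors are stored. Its 3′ end is cut by RNase P and carries no poly(A) tail; a short stretch of A near the end folds with U-rich motifs into a triple helix that protects it.

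In GRCm38 the gene lies on chromosome 19 from 5795690 to 5802672 on the minus strand. GENCODE M21 lists it as a lincRNA with 4 transcripts over 6983 bases. A stretch near the end of the transcript Malat1-201 is shown because it holds the A stretch of the triple helix, which is also the kind of sequence an oligo(dT) primer can pair with in an assay that captures RNA by its A stretches. The bases are positions 6629 to 6691 of the 6983 annotated, so the annotated transcript runs on past them. They lie at chr19:5795982-5796044 on the minus strand and are written 5′ to 3′ with the stretch of 12 A, positions 6674 to 6685, in capitals. It was the only run of 8 or more A in the transcript. The counts do not record where each read began, and no sequence of the oligonucleotide was used here.
Malat1 A stretch: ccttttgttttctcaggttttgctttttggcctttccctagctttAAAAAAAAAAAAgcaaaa

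The 17 libraries held 284074 nuclei, with 13841 to 18365 nuclei and 55393588 to 79866411 UMIs each. Malat1 made up 6.02% of all UMIs, and only 15 nuclei had none. The authors deposited 20 clusters and 7 labels, of which 19 clusters and 6 labels had enough nuclei to be fitted. Cluster 19 (103 nuclei) and the label Glia (225 nuclei) did not. Doublet calls, 16.8% of nuclei, were left in as deposited. Pairs of libraries shared 50 to 110 barcodes, with a median of 76.5. The labels and clusters did not always match: of 193268 nuclei labelled Neurons, 10.1% sat in clusters led by glial genes, so clusters are described by their leading genes. Clusters 0, 2 and 15 were led by oligodendrocyte genes, cluster 14 held mainly astrocytes, with vascular and neuron-labelled nuclei, cluster 11 held microglia and perivascular macrophages, and 11 clusters were neuronal. Cluster 13 was led by the oligodendrocyte precursor genes Pdgfra, Vcan and Cspg4, although 7336 of its 7782 nuclei were labelled Neurons. Clusters 17 and 18 were mostly doublet calls (76.5% and 82.7% of their nuclei).

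In Saline, Malat1 was highest in the 3 oligodendrocyte clusters and in cluster 14, intermediate in most neuron clusters, and lowest in some neuron clusters, microglia and cluster 13. The mean share of UMIs was 11.03% ± 2.22 in cluster 2, 10.4% ± 1.81 in cluster 15, 10.1% ± 1.82 in cluster 0 and 9.25% ± 2.02 in cluster 14 (SD, n = 4 in each). The excitatory neuron clusters 3 and 5 were both at 7.63%, with SDs of 1.75 and 1.85. At the low end were cluster 13 at 5.32% ± 1.42, the inhibitory cluster 4 at 5.21% ± 1.24, the microglial cluster 11 at 5.14% ± 0.918, cluster 12 at 4.91% ± 1.09 and the inhibitory cluster 1 at 4.58% ± 1.09 (n = 4 in each). The highest cluster mean was 2.41-fold above the lowest.

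The order of the clusters was much alike in the 4 Saline animals, but their level was not. Across the 19 clusters, Pearson's r between any pair of Saline animals was 0.87 to 0.98, a description over clusters of libraries that share no nuclei. Saline replicate 4, the Saline animal of batch 4, was the lowest Saline animal in 19 of 19 clusters, and the highest animal stood 1.49- to 2.26-fold above the lowest. Neighbours in the order were therefore compared within animals. Every Saline animal placed cluster 0 above 14 (log2 difference 0.14 ± 0.07), 14 above 3 (0.29 ± 0.16), 9 above 17 (0.06 ± 0.02), 6 above 18 (0.09 ± 0.04), 10 above 13 (0.27 ± 0.08) and 12 above 1 (0.11 ± 0.04; SD, n = 4). The other neighbours changed places in at least 1 animal. The place of 15 beside 2 and 0, and the order among 13, 4 and 11, was therefore not settled by these animals. Clusters 2 and 0 were not neighbours, and every Saline animal placed 2 above 0.

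**Figure D1:**
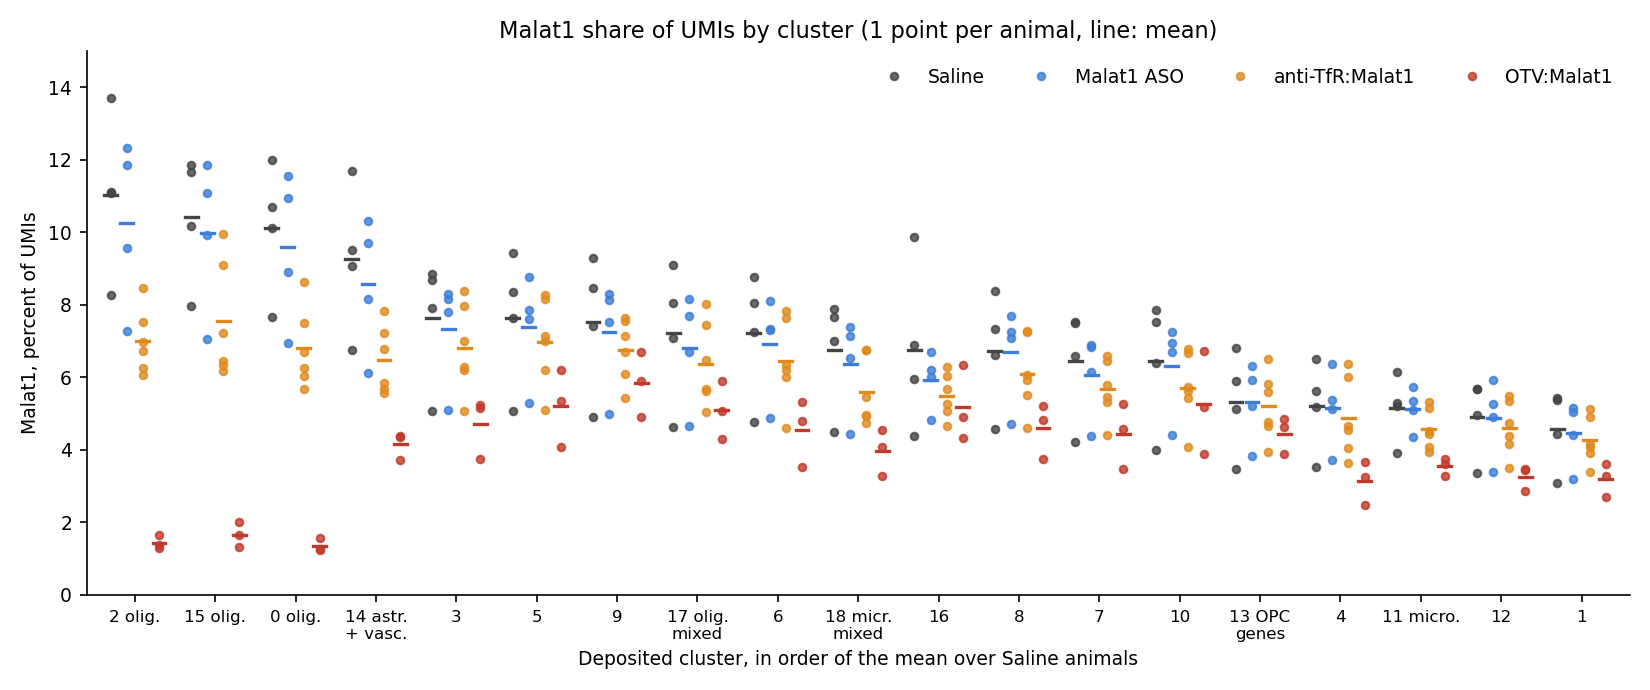
Share of UMIs from Malat1 (y axis, percent) in the 19 fitted clusters (x axis, ordered by the Saline mean), with 1 point per animal and a line at each group mean. The 3 OTV:Malat1 animals lie at 1.23% to 2.01% in the oligodendrocyte clusters 2, 15 and 0, far below all other animals. With batches pooled, as drawn, they overlap the Saline animals in all 11 neuron clusters and in cluster 13.

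With OTV:Malat1 the oligodendrocyte clusters lost most of their Malat1. In cluster 0 the 4 Saline animals stood at 12%, 10.1%, 10.7% and 7.65%, and the 3 OTV:Malat1 animals at 1.57%, 1.23% and 1.25%. The 6 anti-TfR:Malat1 animals stood at 6.25%, 6.70%, 8.63%, 7.50%, 6.03% and 5.68%, and the 4 Malat1 ASO animals at 10.9%, 8.89%, 11.6% and 6.95%. Every OTV:Malat1 animal was below every animal of the other groups, 5 of 6 anti-TfR:Malat1 animals were below all Saline animals, and the Malat1 ASO and Saline animals overlapped. The OTV:Malat1 mean was 13.4% of the Saline mean in cluster 0, 13.1% in cluster 2 and 15.9% in cluster 15. In cluster 2 the Saline animals stood at 13.7%, 11.1%, 11.1% and 8.26%, and the OTV:Malat1 animals at 1.65%, 1.30% and 1.38%. In cluster 15 they stood at 11.7%, 10.2%, 11.9% and 7.96% against 2.01%, 1.65% and 1.31%. In all 3 clusters the groups lay far apart.

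The changes were tested by edgeR on UMIs summed per animal and cluster, with batch as a block and Benjamini-Hochberg adjustment over all genes tested in a cluster. OTV:Malat1 minus Saline was -3.02 in cluster 2 (log2, SE 0.14, adjusted p = 8.53e-11), -3.01 in cluster 0 (SE 0.15, adjusted p = 4.37e-10) and -2.79 in cluster 15 (SE 0.12, adjusted p = 8.18e-14). Within batches the log2 ratio in cluster 0 was -2.69, -3.12 and -2.61 in batches 2, 3 and 4; batch 1 had no OTV:Malat1 animal. Of the 19 clusters, Malat1 fell in 6 with OTV:Malat1, against 0.00258% of gene-by-cluster tests called in that comparison, all 6 of them Malat1 itself. DESeq2 called Malat1 in 10 clusters, and edgeR with no filter on low counts in 17. The estimate was below 0 in 19 of 19 clusters, and 17 had an unadjusted p under 0.05. Every OTV:Malat1 animal was below every Saline animal in 5 of 19 clusters (0, 2, 15, 14 and 11), against 0.96% of gene-by-cluster pairs. For that count the exact two-sided permutation p of the share was 0.0571, the smallest that 3 animals against 4 allow (adjusted p = 0.241 over 76 tests).

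**Figure D2:**
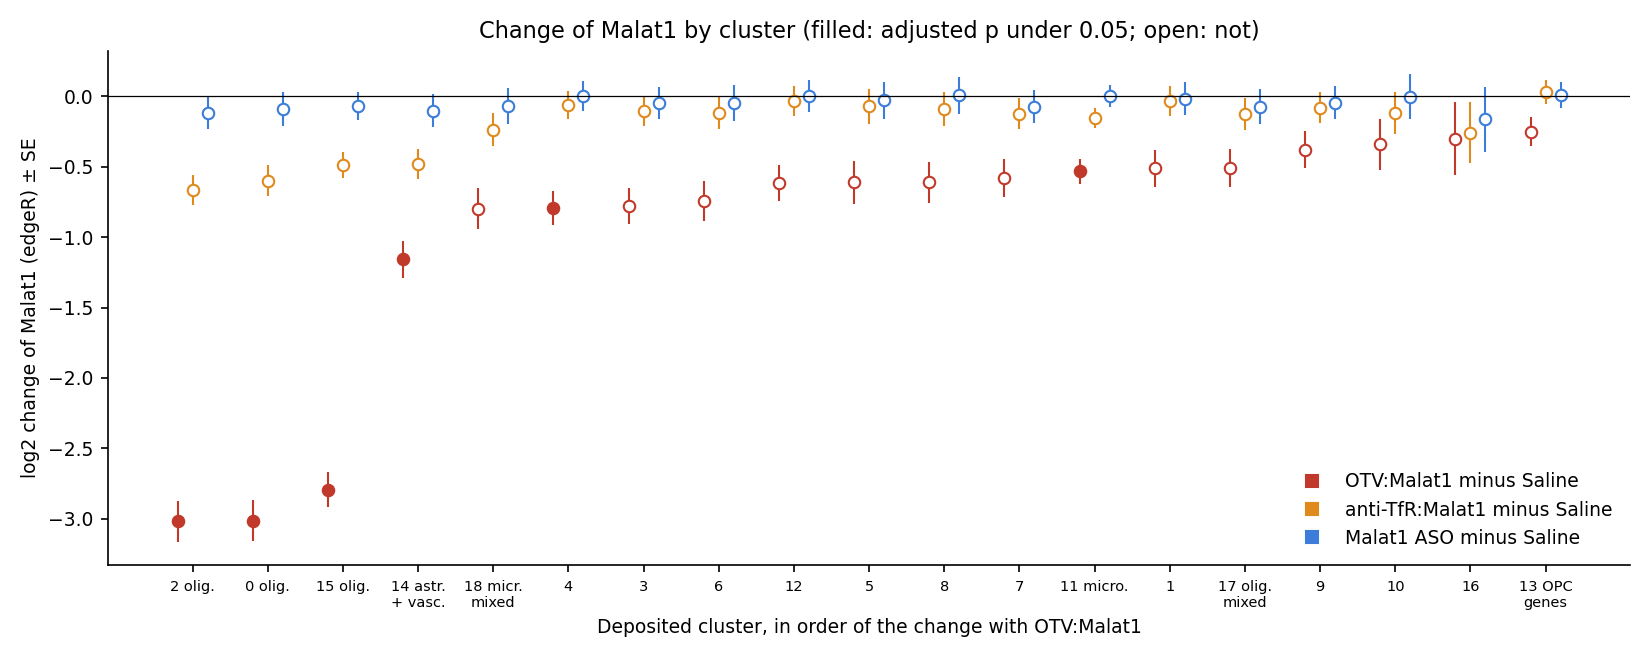
Log2 change of Malat1 against Saline by edgeR (y axis, ± SE) in each cluster (x axis, ordered by the OTV:Malat1 change), with filled symbols where the adjusted p was under 0.05. OTV:Malat1 lies near -3 in the oligodendrocyte clusters, at -1.16 in cluster 14 and between -0.80 and -0.25 elsewhere, and no anti-TfR:Malat1 or Malat1 ASO symbol is filled.

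With anti-TfR:Malat1, at the same labelled dose of 50 mg per kg, the same glial clusters were lower than in Saline, by less. The anti-TfR:Malat1 mean was 63.5% of the Saline mean in cluster 2, 67.2% in cluster 0, 72.4% in cluster 15 and 70.1% in cluster 14. The edgeR estimates were -0.67 in cluster 2 (SE 0.11, adjusted p = 0.0568), -0.60 in cluster 0 (SE 0.11, adjusted p = 0.413), -0.49 in cluster 15 (SE 0.09, adjusted p = 0.204) and -0.48 in cluster 14 (SE 0.11, adjusted p = 0.495). None of the 19 clusters passed the threshold by edgeR, 5 had an unadjusted p under 0.05, and DESeq2 called 2 (clusters 0 and 2). The comparison called 0.000429% of gene-by-cluster tests. The within-batch log2 ratios in cluster 0 were -0.94, -0.60, -0.41 and -0.39 in batches 1 to 4. Every anti-TfR:Malat1 animal was below every Saline animal in 0 of 19 clusters (0.309% of gene-by-cluster pairs).

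The direct comparison of the TfR binders, both at 50 mg per kg, gave lower Malat1 with OTV:Malat1 in 4 clusters, against 0.00172% of gene-by-cluster tests called. The difference was -2.41 in cluster 0 (log2, SE 0.14, adjusted p = 6.63e-09), -2.35 in cluster 2 (SE 0.13, adjusted p = 2.24e-09), -2.31 in cluster 15 (SE 0.12, adjusted p = 1.60e-12) and -0.73 in the inhibitory neuron cluster 4 (SE 0.11, adjusted p = 0.042). Cluster 4 was not called with doublet calls left out (adjusted p = 0.0579), without a batch term (adjusted p = 0.983), or without any 1 animal of either group other than anti-TfR:Malat1 replicate 1 (adjusted p from 0.0566 to 0.769). In cluster 14 the difference was -0.68 (SE 0.12, adjusted p = 0.11), and all 19 estimates were below 0. Every OTV:Malat1 animal was below every anti-TfR:Malat1 animal in 7 of 19 clusters, against 0.285% of gene-by-cluster pairs. Without anti-TfR:Malat1 replicate 1, which was the lowest of its group in most neuron clusters, edgeR called 10 clusters.

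With Malat1 ASO, at 2 mg per kg, no cluster changed by edgeR: the estimates ran from -0.16 to 0.01, and 0 of 19 had an unadjusted p under 0.05, while 0.000429% of gene-by-cluster tests were called. DESeq2 called none either. The comparisons with Saline share the 4 Saline animals.

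Cluster 14 joined astrocytes, which maintain ions and transmitters around synapses, with vascular cells, and it was lower with OTV:Malat1 than in Saline. By label it held 4793 nuclei of Astrocytes, 1203 of Vascular cells, 1147 of Neurons and 223 of Glia. For the whole cluster the Saline animals stood at 11.7%, 9.06%, 9.51% and 6.76%, and the OTV:Malat1 animals at 4.37%, 4.37% and 3.71%. The edgeR change was -1.16 (log2, SE 0.13, adjusted p = 8.42e-05). Its nuclei labelled Astrocytes went from 9.75% ± 2.36 in Saline (n = 4) to 6.21% ± 0.792 with anti-TfR:Malat1 (n = 6) and 3.27% ± 0.180 with OTV:Malat1 (n = 3). Its nuclei labelled Vascular cells stood at 10.2% ± 1.48, 8.20% ± 1.39 and 7.76% ± 0.794 in those groups, and those labelled Neurons at 7.93% ± 1.43, 6.44% ± 1.26 and 4.70% ± 0.572. With OTV:Malat1 both the astrocytes and the neuron-labelled nuclei were below every Saline animal, and the vascular nuclei overlapped Saline. Whether the labels differed in their change was not tested. For the astrocytes of cluster 14 set against the neuron clusters of the same animal, OTV:Malat1 minus Saline was -0.99 (log2) and anti-TfR:Malat1 minus Saline -0.51.

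**Figure D3:**
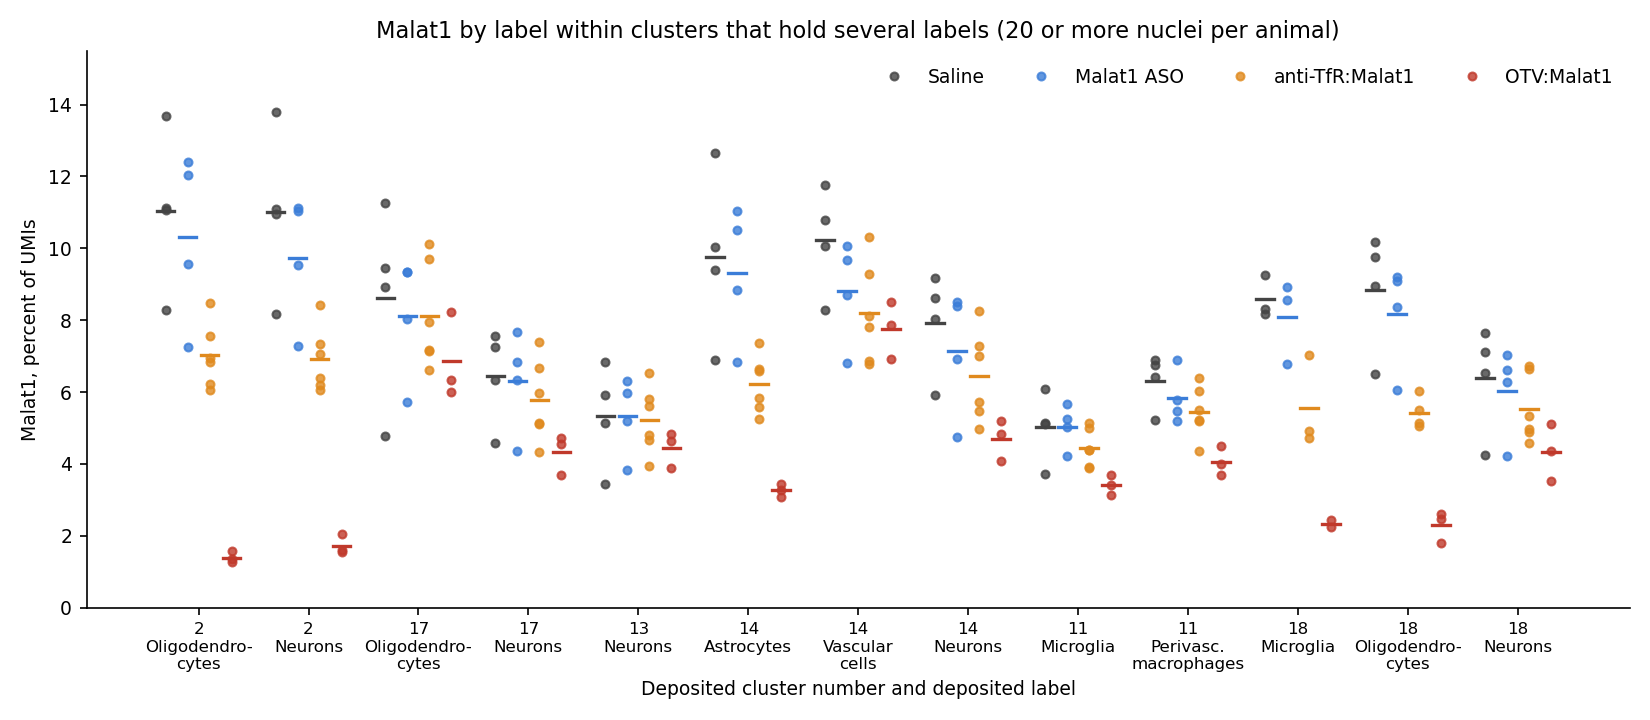
Share of UMIs from Malat1 (y axis, percent) for each deposited label within the clusters that hold several labels (x axis), with 1 point per animal and a line at the group mean. Under OTV:Malat1 the nuclei labelled Neurons in cluster 2 lie at 1.54% to 2.05%, slightly above the oligodendrocytes there (1.26% to 1.57%), while oligodendrocyte-labelled nuclei of cluster 17 remain at 6.01% to 8.24%.

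Cluster 11 held microglia, the resident immune cells of brain tissue, and perivascular macrophages. Its Saline animals stood at 6.14%, 5.22%, 5.29% and 3.91%, and its OTV:Malat1 animals at 3.76%, 3.61% and 3.29%, with no overlap and a gap smaller than the spread of the Saline animals. The edgeR change was -0.53 (log2, SE 0.09, adjusted p = 0.0191), and it was not called without any 1 of the OTV:Malat1 replicates or Saline replicate 2 or 3 (adjusted p from 0.0517 to 0.571) or without a batch term (adjusted p = 0.677). Against the neuron clusters of the same animal, cluster 11 differed by 0.04 (log2) between OTV:Malat1 and Saline (exact permutation p = 0.80). Its microglia went from 5.02% ± 0.976 to 3.41% ± 0.287 and its perivascular macrophages from 6.32% ± 0.766 to 4.06% ± 0.417 (n = 4 and 3). With doublet calls left out the edgeR change in cluster 11 was -0.55 (adjusted p = 0.00651). Markers of other cell types averaged higher beside the change, with overlapping ranges, and their part in it was not tested. In cluster 11 the 5 oligodendrocyte markers Mbp, Mobp, Mog, Mag and St18 summed to 148 to 263 CPM (UMIs of a gene scaled to a common library total) in Saline and 228 to 439 CPM with OTV:Malat1, and 5 neuron markers (Rbfox3, Snap25, Syt1, Meg3 and Snhg11) to 1326 to 1956 CPM and 1843 to 2676 CPM. The neuron markers averaged 1724 CPM in Saline, 2306 CPM with Malat1 ASO, 2145 CPM with anti-TfR:Malat1 and 2151 CPM with OTV:Malat1. The oligodendrocyte markers averaged 218, 254, 214 and 316 CPM in those groups. Among nuclei labelled Microglia with 1000 or more UMIs in the 3 OTV:Malat1 animals, those under the 10th percentile of the Saline nuclei of their batch held 2492, 1746 and 3377 CPM of the oligodendrocyte markers, with 16.5%, 11.4% and 26.5% doublet calls. The others held 782, 491 and 650 CPM, with at most 5.08% doublet calls. In the 4 Saline animals the order was the opposite, with 187 to 264 CPM under that percentile and 613 to 1369 CPM in the others. The same turn was seen in nuclei labelled Neurons. With OTV:Malat1 those under their percentile held 376, 423 and 309 CPM, and the others 287, 329 and 230 CPM. Doublet calls were 27.1%, 27.7% and 27.3% against 24.0%, 22.8% and 23.5%. Nuclei labelled Astrocytes held 921, 639 and 645 CPM against 320, 573 and 319 CPM. In all Saline animals the order of the markers was the opposite for both labels. The part of these markers in the change was not tested. In the doublet-rich cluster 18, the nuclei labelled Microglia went from 8.58% ± 0.584 (n = 3) to 2.34% ± 0.135 (n = 2).

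The 11 neuron clusters were lower with OTV:Malat1 by -0.79 to -0.30 (log2, edgeR), with a median of -0.61. Cluster 4 alone passed the adjusted threshold (-0.79, SE 0.12, adjusted p = 0.038), and 9 of 11 had an unadjusted p under 0.05. DESeq2 called 4 of them (3, 4, 6 and 12), and edgeR with no filter on low counts 9 (all but 10 and 16). Nuclei labelled Neurons that were low in Malat1 held more oligodendrocyte markers with OTV:Malat1, as given above. That label includes nuclei of clusters 0, 2 and 15. With OTV:Malat1 these were 1.68%, 1.56% and 1.34% of the low nuclei and 0.23%, 0.12% and 0.12% of the others. Within the neuron clusters the 5 oligodendrocyte markers summed to 237 to 297 CPM in Saline and 232 to 343 CPM with OTV:Malat1. The part of these markers in the fall of the neuron clusters was not tested. In cluster 4 the Saline animals stood at 5.63%, 5.19%, 6.50% and 3.53%, and the OTV:Malat1 animals at 3.25%, 3.67% and 2.47%. The groups overlapped in this cluster through Saline replicate 4. The call was lost without a batch term (adjusted p = 1.0), with doublet calls left out (adjusted p = 0.165), and without any 1 animal of either group other than Saline replicate 4 (adjusted p from 0.123 to 0.36). With anti-TfR:Malat1 the neuron clusters ran from -0.26 to -0.03, with a median of -0.09, and none was called. Those small averages held batches of opposite sign: in cluster 3 the log2 ratio was -0.77 in batch 1 and 0.30 in batch 4, where Saline replicate 4 was the reference.

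Cluster 13, with the oligodendrocyte precursor genes, had the OTV:Malat1 minus Saline estimate nearest to 0 (-0.25 by edgeR, SE 0.10, unadjusted p = 0.0189, adjusted p = 0.982). The estimates of the neuron clusters 16 (-0.30, SE 0.26) and 10 (-0.34, SE 0.18) lay within an SE of it. With no filter on low counts edgeR called Malat1 in cluster 13. Its Saline animals stood at 6.82%, 5.13%, 5.89% and 3.46%, and its OTV:Malat1 animals at 4.63%, 4.84% and 3.88%, inside the Saline range. The within-batch log2 ratios were -0.15, -0.28 and 0.16. Against the oligodendrocyte clusters of the same animal, cluster 13 was at -0.98 ± 0.165 (log2, n = 4) in Saline, -0.42 ± 0.142 with anti-TfR:Malat1 (n = 6) and 1.63 ± 0.206 with OTV:Malat1 (n = 3), so the order of precursor and mature clusters turned around. The shift from Saline was 2.62 for OTV:Malat1 (exact permutation p = 0.0571, the lowest that 3 and 4 animals allow, and 0.091 after adjustment over 32 tests) and 0.57 for anti-TfR:Malat1 (exact permutation p = 0.0095, adjusted p = 0.059). Against the neuron clusters of the same animal the shift was 0.33 for OTV:Malat1 (exact permutation p = 0.0571, adjusted p = 0.091). These reference clusters were chosen after seeing the data.

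Cluster 17 was led by Tns3, Itpr2, Bmp4 and Neu4, genes of newly formed oligodendrocytes among others. Its nuclei labelled Oligodendrocytes stood at 8.60% ± 2.74 in Saline (n = 4), 8.11% ± 1.46 with anti-TfR:Malat1 (n = 6) and 6.86% ± 1.20 with OTV:Malat1 (n = 3). Compared with the oligodendrocyte clusters of the same animal they moved from -0.32 ± 0.287 in Saline to 2.25 ± 0.355 (log2) with OTV:Malat1 (exact permutation p = 0.0571, adjusted p = 0.091). By contrast, the oligodendrocyte-labelled nuclei of cluster 18 went from 8.85% ± 1.65 to 2.28% ± 0.437, and the neuron-labelled nuclei of cluster 2 from 11.004% ± 2.29 to 1.73% ± 0.282. The neuron-labelled nuclei of cluster 17 went from 6.43% ± 1.34 to 4.32% ± 0.549. Among all 100 differences between clusters, or between a cluster and the rest of its label, none passed the adjusted threshold (lowest adjusted p = 0.0586).

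By label, OTV:Malat1 minus Saline passed in 4 of 6 labels, against 0.0104% of gene-by-label tests called, and anti-TfR:Malat1 minus Saline in 1 of 6, Astrocytes, against 0.00173%. The latter was -0.61 (log2, edgeR, SE 0.11, adjusted p = 0.036), and it was lost without the batch term (adjusted p = 0.156) and without any 1 of Saline replicates 1 to 3 or anti-TfR:Malat1 replicates 2 to 5 (adjusted p from 0.0594 to 0.4). Malat1 ASO minus Saline passed in 0 labels, 0 of them with an unadjusted p under 0.05 (0% of gene-by-label tests), and OTV:Malat1 minus anti-TfR:Malat1 in 3 (0.0052%). Perivascular macrophages, scavenger cells along vessels, changed by -0.79 with OTV:Malat1 (log2, SE 0.12, adjusted p = 0.000573). That label held 126 nuclei with OTV:Malat1, and its call was lost without the batch term.

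To compare single nuclei at 1 depth, each nucleus was thinned to 1000 UMIs, and shallower nuclei were left out. The shares left out differed between groups: in cluster 2 they were 82.8% with OTV:Malat1, 60.0% with anti-TfR:Malat1 and 58.8% in Saline, in cluster 11 66.9%, 55.9% and 51.5%, and in cluster 0 6.55%, 0.997% and 0.648%. Thinning to 500 UMIs left out 0% of the nuclei in these clusters. It was run for the ratio of the 90th to the 10th percentile and for the share under the Saline 10th percentile. The differences compared there were those of the ratio in at most clusters 0, 2, 3, 13 and 14, and of the share in clusters 0 and 14. None of these changed its sign. Cluster 11 was not among them. Whether the loss of nuclei bears on the other values below was not tested. In the 18 clusters with enough nuclei, all 306 distributions (1 per animal and cluster) had a single mode. Malat1 in cluster 0 averaged 100.6 UMIs per nucleus in Saline, with a 10th percentile of 72.0 and a 90th of 133.6. With OTV:Malat1 it averaged 13.3, from 5.00 at the 10th to 24.0 at the 90th percentile. With anti-TfR:Malat1 it averaged 67.4, from 31.5 to 99.6. With OTV:Malat1 the distribution as a whole lay below that of Saline: 99.8%, 99.9% and 99.8% of nuclei in the 3 animals fell under the 10th percentile of the Saline nuclei of their batch.

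With anti-TfR:Malat1 a smaller share of the nuclei of cluster 0 was that low. Of them 85.5%, 57.6%, 37.6%, 50.2%, 36.3% and 41.6% in the 6 animals were under that percentile, against 18.5%, 21.6%, 3.81% and 11.6% with Malat1 ASO. The tail was on the low side. The batch-matched log2 change of anti-TfR:Malat1 was -1.16 at the 10th percentile of nuclei and -0.37 at the 90th, while that of OTV:Malat1 was -3.72 and -2.39. In both groups the nuclei lowest in Malat1 thus stood further from Saline than the highest. A low count is noisier, which by itself spreads the percentiles apart, and the part of that in these changes was not tested. The bimodality coefficient of log2(UMIs + 1), which rises as a distribution flattens, splits or becomes skewed, was 0.32 on average in Saline and 0.51 with anti-TfR:Malat1. It reached 0.557 there in 1 anti-TfR:Malat1 animal and 0.556 in cluster 13 of OTV:Malat1 replicate 2, in both cases with no second mode. These were the only 2 of 306 distributions over 5/9.

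**Figure D4:**
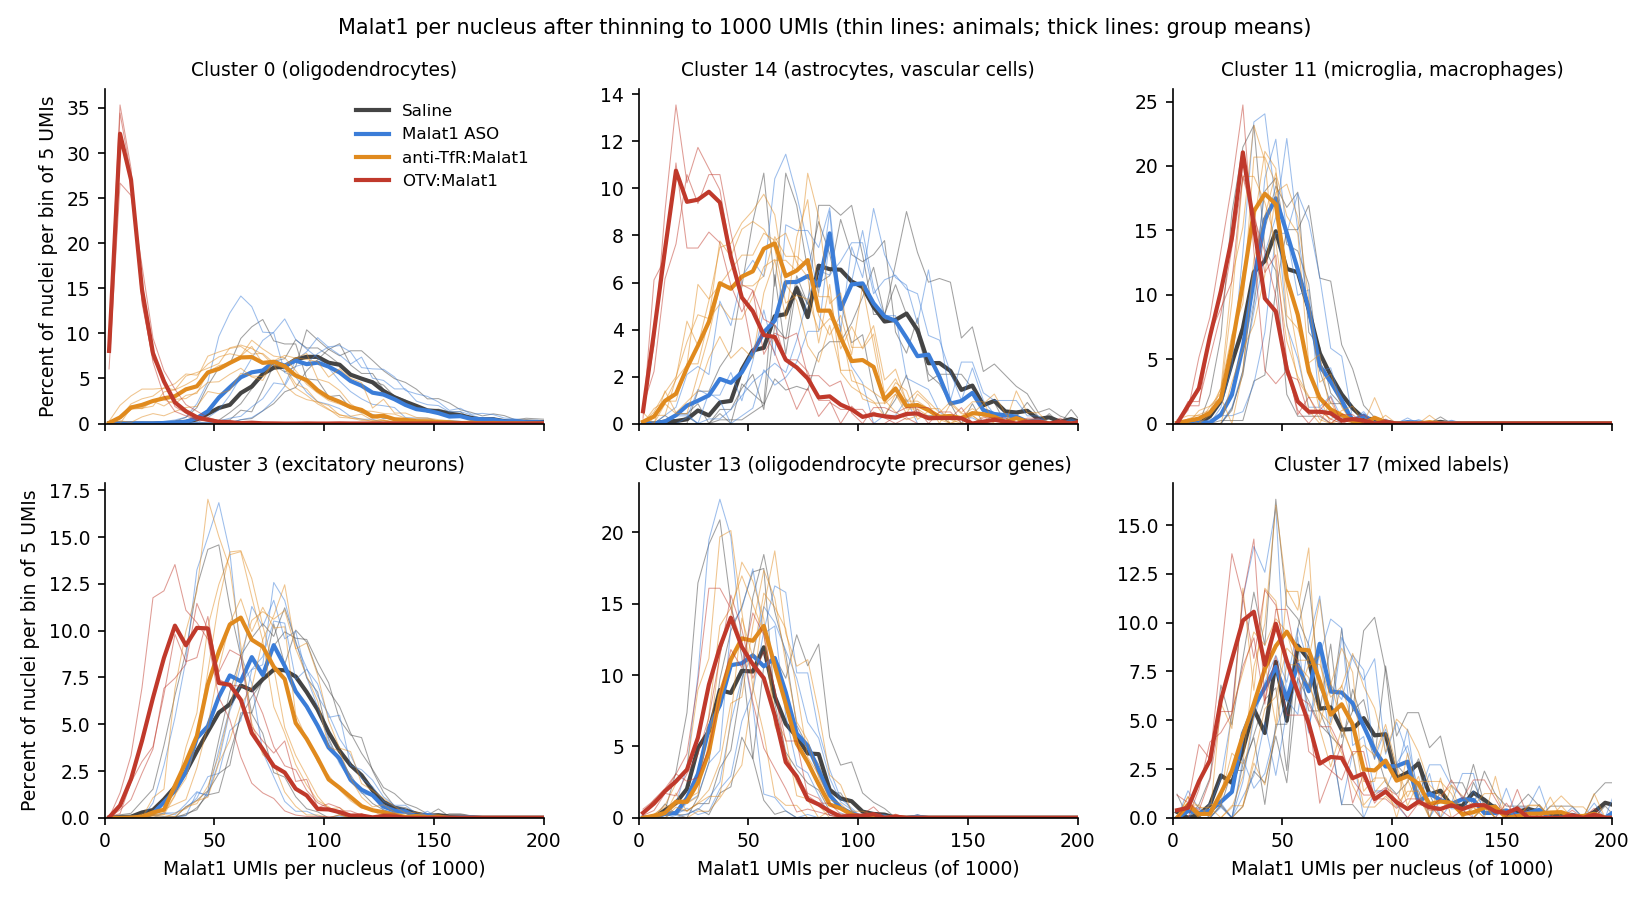
Percent of nuclei (y axis) by Malat1 UMIs of 1000 (x axis, bins of 5) in 6 clusters, with thin lines for animals and thick lines for group means. In cluster 0 OTV:Malat1 forms a narrow peak near 10 UMIs, apart from the Saline peak near 100, and anti-TfR:Malat1 has a lowered peak with a long low tail; in cluster 13 the peaks of the groups lie close together.

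The spread between nuclei was measured as the log2 ratio of the 90th to the 10th percentile. In cluster 0 it was 0.90 ± 0.06 in Saline, 1.70 ± 0.25 with anti-TfR:Malat1 and 2.25 ± 0.21 with OTV:Malat1 (SD, n = 4, 6 and 3). A low count is noisier, so the coefficient of variation beyond counting (the root of the variance minus the mean, over the mean) was added after seeing the data. In cluster 0 it was 0.228 ± 0.00525 in Saline, 0.218 ± 0.00495 with Malat1 ASO, 0.381 ± 0.0349 with anti-TfR:Malat1 and 0.622 ± 0.0691 with OTV:Malat1. The 4 Saline animals stood at 0.229, 0.227, 0.222 and 0.234, the 6 anti-TfR:Malat1 animals at 0.328 to 0.433, and the 3 OTV:Malat1 animals at 0.696, 0.612 and 0.559, with no overlap among the groups. Relative to its mean, Malat1 in cluster 0 varied more from nucleus to nucleus with either TfR binder than in Saline. The Fano factor (variance over mean) gave another order: it was 6.21 ± 0.844 in Saline, 10.7 ± 1.06 with anti-TfR:Malat1 and 6.29 ± 1.90 with OTV:Malat1. By that measure OTV:Malat1 and Saline did not overlap in 5 of 18 clusters (3, 7, 11, 13 and 14).

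Clusters 0, 2, 15 and 14 had a larger coefficient with both TfR binders than in Saline, with no overlap between the groups; in cluster 2 this rests on the minority of nuclei left after thinning. For OTV:Malat1 the coefficient was above Saline in 18 of 18 clusters, with no overlap in 16, and for anti-TfR:Malat1 in 10 of 18, with no overlap in those 4. The spread between nuclei was measured for Malat1 alone. No share over other genes therefore stands beside these counts, and whether other genes spread alike was not tested. The part of oligodendrocyte markers in other nuclei in the spread was not tested either. In cluster 14 the coefficient was 0.258 ± 0.0251 in Saline, 0.409 ± 0.00659 with anti-TfR:Malat1 and 0.667 ± 0.0747 with OTV:Malat1, over all labels of the cluster together. For the label Astrocytes alone it was 0.218 ± 0.0254, 0.339 ± 0.0381 and 0.538 ± 0.0489 (n = 4, 6 and 3). In the excitatory cluster 3 it was 0.219 ± 0.0269, 0.203 ± 0.00826 and 0.383 ± 0.00494, and in cluster 13 it was 0.201 ± 0.00756, 0.198 ± 0.0239 and 0.307 ± 0.0227. For anti-TfR:Malat1 minus Saline the exact permutation p was 0.0095 in clusters 0, 2, 14 and 15, the lowest these group sizes allow (0.086 after adjustment over 72 tests). For OTV:Malat1 minus Saline it was 0.0571 in cluster 0, again the lowest allowed (adjusted p = 0.103). None of these tests passed the adjusted threshold.

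**Figure D5:**
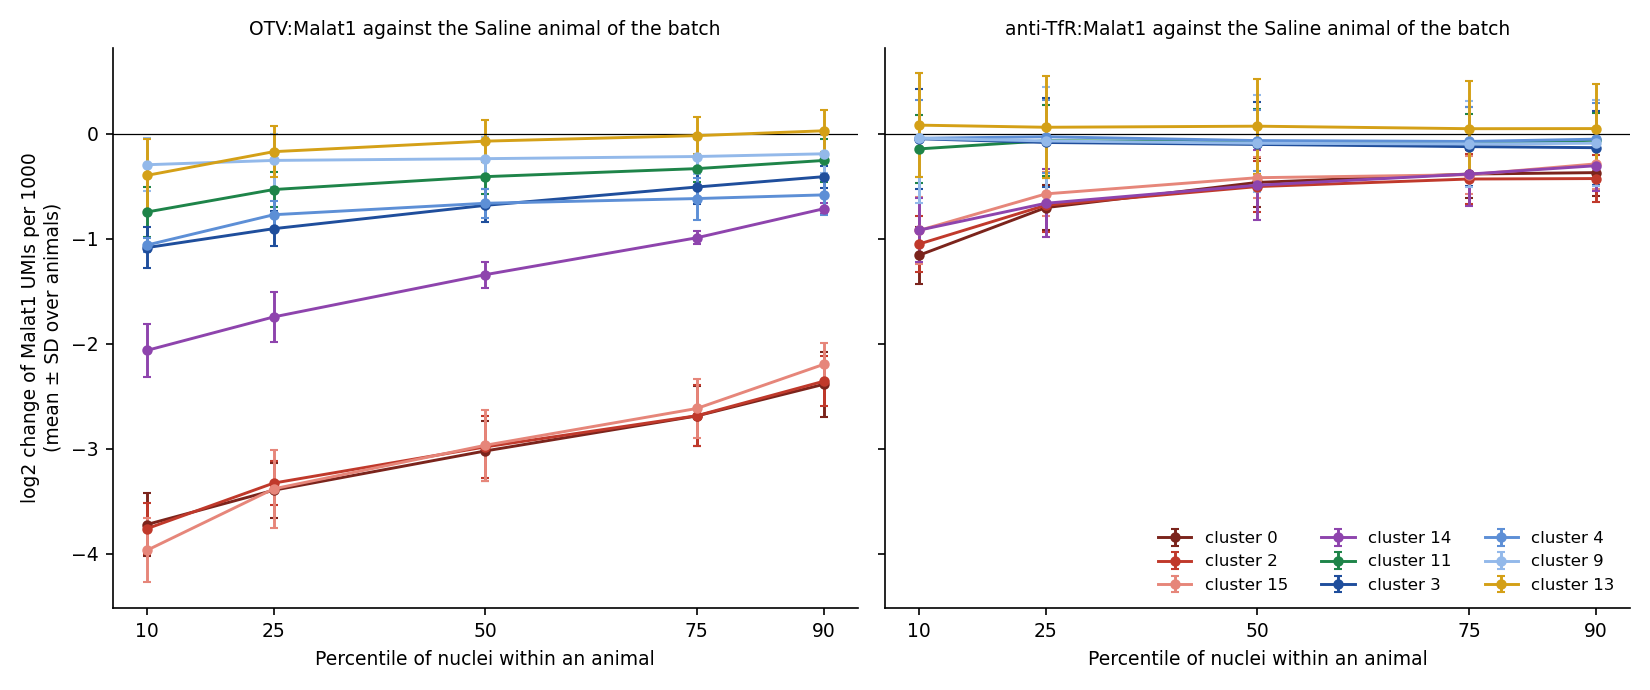
Log2 change of Malat1 UMIs per 1000 against the Saline animal of the batch (y axis, mean ± SD over animals) at the 10th to 90th percentile of nuclei (x axis) in 9 clusters. A low count is noisier, which by itself spreads the percentiles apart, and its part in the slopes was not tested. With OTV:Malat1 the change in cluster 0 shrinks from -3.72 to -2.39 across percentiles, in cluster 14 from -2.06 to -0.71 and in cluster 3 from -1.08 to -0.41; with anti-TfR:Malat1 the glial clusters slope and the others stay flat near 0.

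Nuclei labelled Oligodendrocytes that kept a Saline level of Malat1 under OTV:Malat1 were few and lay mostly outside the 3 oligodendrocyte clusters. In the 3 animals 43, 54 and 29 such nuclei were at or above the Saline 10th percentile, against 2756, 4113 and 1805 below it. These counts leave out the nuclei under 1000 UMIs, 38.0% of the 14193 nuclei of that label with OTV:Malat1 and 19.8% of the 18288 in Saline. Of the nuclei at or above it, 69.8%, 87.0% and 93.1% were in clusters 13 or 17, nearly all of them in 17, where they made up 39.5%, 46% and 55.1% of 76, 100 and 49 such labelled nuclei. In cluster 13 none of 30 and 4.55% of 22 labelled nuclei were at that level in replicates 1 and 2. The limit was that of the whole label, and the share in cluster 13 was also low in Saline. It was 8.33% of 36 and 8.82% of 34 in Saline replicates 1 and 2. In cluster 17 the 4 Saline animals had 67.4%, 62.5%, 60.9% and 40.5%. Of all nuclei at that level in the 3 OTV:Malat1 animals, 16.3%, 22.2% and 48.3% were doublet calls. Their median depth was 2992, 3289 and 3052 UMIs, against 1326, 1376 and 1233 UMIs in the nuclei below. Within cluster 0 the share at or above it was 0.25%, 0.07% and 0.08% of the oligodendrocyte-labelled nuclei.

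The change differed with the depth of the nuclei, in different ways by label, and the part of depth in it was not tested. In oligodendrocyte-labelled nuclei the within-batch log2 change with OTV:Malat1 was -2.84 from 500 to under 1000 UMIs per nucleus, -2.77 up to under 2000, -1.85 up to under 4000 and -0.94 at 4000 or more (77 nuclei with OTV:Malat1). Over the same ranges it was -1.74, -0.38, -0.39 and -0.50 in nuclei labelled Neurons. In astrocytes it was -1.03, -1.43 and -1.45 over the first 3 ranges, and in microglia -0.48 and -0.52 over the first 2. The ranges of a label hold different clusters: nuclei labelled Neurons include 1077 of the shallow cluster 2 with OTV:Malat1, and most oligodendrocyte-labelled nuclei that kept a Saline level, which had a high median depth, lay in cluster 17. Depth and cluster therefore moved together in these values.

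Markers of other cells in clusters 0, 2 and 15 averaged higher in all 3 treated groups than in Saline, and their part in the change was not tested. The 5 neuron markers averaged 1256 CPM in Saline, 1520 CPM with Malat1 ASO, 1512 CPM with anti-TfR:Malat1 and 1531 CPM with OTV:Malat1. By animal they summed to 945 to 1467 CPM in Saline, 972 to 2073 CPM with Malat1 ASO, 1211 to 1765 CPM with anti-TfR:Malat1 and 1363 to 1742 CPM with OTV:Malat1, against 16567 to 19329 CPM in the neuron clusters of Saline. The 5 oligodendrocyte markers there summed to 11031 to 12759 CPM in Saline and 11535 to 12379 CPM with OTV:Malat1, inside the Saline range.

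Genes whose Saline level across the 19 clusters was most like that of Malat1 were Mast3 (Pearson r = 0.88), a kinase, Klhl2 (0.86), an adaptor of a ubiquitin ligase, Tom1l2 (0.86), Mink1 (0.85), a kinase, and Gpm6b (0.85), a membrane glycoprotein. They were ranked among 2104 genes at a mean of 100 CPM or more, whose median r was -0.08 and 95th percentile 0.70. Clusters share libraries, so these values carry no p. Klhl2 spanned 4.30 log2 units over the clusters, and Malat1 1.38.

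Genes whose OTV:Malat1 minus Saline difference in log2(CPM + 1) followed that of Malat1 across clusters most closely were Med12l (r = 0.84), Atp8a2 (0.81), Wwox (0.81), Trio (0.78) and Rims2 (0.77). The median r was 0.01 and the 95th percentile 0.47. Their differences were small beside that of Malat1: the mean over the oligodendrocyte clusters was -0.48 for Med12l and -0.25 for Trio, while Malat1 ranged from -2.94 to -0.09 over the clusters. None of the 5 was called in any cluster. Med12l, Atp8a2 and Trio reached the mean of 100 CPM through other clusters. In Saline they stood at 4.15 to 5.24 log2(CPM + 1) in the oligodendrocyte clusters. In the neuron cluster 1 they were at 7.94, 8.31 and 8.40. Wwox and Rims2 were higher in cluster 0, at 8.97 and 6.79.

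A list of 30 genes covered the processing, anchoring, decay and RNase H cleavage of Malat1, including the RNase P subunits. Neat1 was in the list only as a neighbouring noncoding RNA, so its tests are part of the counts below. None of the 30 was called by edgeR in any cluster or comparison (500 gene-by-cluster tests in each). In OTV:Malat1 minus Saline, 9 tests had an unadjusted p under 0.05 upward and 2 downward, 2.2% of the list against 3.53% of all genes, and the list's median change was 0.03. In anti-TfR:Malat1 minus Saline the numbers were 5 upward and 17 downward (4.4% against 3.35%, median -0.02), in Malat1 ASO minus Saline 3 and 2 (1% against 2.46%, median -0.02), and in OTV:Malat1 minus anti-TfR:Malat1 27 and 3 (6% against 4.91%, median 0.06). Across clusters in OTV:Malat1 minus Saline, Rnaseh1, the nuclease that cuts RNA paired with an oligonucleotide, had a median change of 0.00 over 18 clusters (-0.36 to 0.71). Mettl16, which binds the Malat1 triple helix, had a median of -0.01 (-0.27 to 0.28). Neat1, the noncoding RNA encoded beside Malat1 that builds paraspeckles, had a median of 0.20 (-0.20 to 0.60). Its unadjusted p was under 0.05 in 4 of 18 clusters, with a lowest adjusted p of 0.972. In OTV:Malat1 minus anti-TfR:Malat1 the median of Neat1 was 0.31, with an unadjusted p under 0.05 in 8 of 18 clusters and a lowest adjusted p of 0.651.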

How the data were processed

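Single-nucleus RNA was counted in the posterior brain of 17 mice; per the labels, nuclei were dounced, stained with DAPI and sorted. The submitters' processing notes name mm10, Cell Ranger 6.0.1 and Seurat 4. The authors deposited UMI counts per gene and nucleus with no normalization, and a table with label, cluster (column name ending in 0.4), batch, doublet call, and prediction and doublet scores from 0 to 1 (deposited fractions). What the batch number marks was not stated.

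Counts were summed per animal over each cluster or label with 20 or more nuclei. They were fitted for all 17 animals in edgeR 4.0.16 (R 4.3.3; filterByExpr, TMM, quasi-likelihood, batch + group, two-sided), with Benjamini-Hochberg adjustment over all genes of a fit and a threshold of 0.05. The fit was tested on simulated data. DESeq2 1.42.0 was an alternative. An exact permutation test over animals, two-sided with the smaller tail doubled, served for shares and spreads. Nuclei were thinned without replacement to 1000 UMIs, with 50 or more nuclei needed per animal. Counts of groups that do not overlap used genes at a mean of 10 CPM or more. Each animal was 1 library; intervals and p-values cover the spread between these animals. Malat1, Rnaseh1, Mettl16 and Neat1 were always named, with list members past the threshold and the 5 genes most like Malat1 by each measure; per-animal values were given for up to 8 clusters where Malat1 passed, and for 13 beside them. Names and coordinates came from GENCODE M21. Python 3.11.15 with numpy 2.4.6, pandas 2.3.3, scipy 1.17.1 and matplotlib 3.10.9 was used. The gene, lists and comparisons were chosen with earlier results of these data known. The oligodendrocyte markers were summed over 5 genes of a list of 6, chosen after seeing the data; the other is not reported here, for a reason unrelated to its values.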

Additional observations from a re-analysis of the deposited data

Results flagged for a closer look

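Of 129 groups of 4 or 6 animals tested for a sample far from the others, 4 had one, and chance flags about 1 group in 20. In cluster 3, Malat1 made up 5.09% of UMIs in Malat1 ASO replicate 4, against 7.81% to 8.28% in the other Malat1 ASO animals. The log2 ratio of the 90th to the 10th percentile was 1.32 in Saline replicate 4 in cluster 1, against 1.20 to 1.22 in the other Saline animals. In cluster 3 it was 1.11 in Saline replicate 4, against 0.85 to 0.89. In cluster 8 it was 1.32 in Malat1 ASO replicate 1, against 1.21 to 1.23. Both replicates numbered 4 belong to batch 4.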

How the results depend on the processing

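Malat1 in clusters 0, 2, 15 and 14 was lower with OTV:Malat1 than in Saline, and passed, under every alternative run, and no value changed its sign when called. The numbers of calls moved more. For OTV:Malat1 minus Saline, 6 clusters were called by edgeR, 10 by DESeq2 and 17 with no filter on low counts, and 4 to 7 when 1 animal was left out. For OTV:Malat1 minus anti-TfR:Malat1 the numbers were 4, 9 and 17, and 3 to 10 when 1 animal was left out, the 10 without anti-TfR:Malat1 replicate 1. For anti-TfR:Malat1 minus Saline they were 0, 2 and 5 clusters. By label, anti-TfR:Malat1 minus Saline was called in 1 label by edgeR, 2 by DESeq2, 5 with no filter, 0 without a batch term, and 0 to 1 when 1 animal was left out. The cause was not tested. Over all results, leaving out 1 animal left 561 values the same, 33 weaker and 2 stronger. The other alternatives left 296 the same, 12 weaker and 20 stronger. For a difference, the same meant the same side of the adjusted threshold, and for a number of calls it meant a similar number. Permutation tests of OTV:Malat1 against Saline could not pass at these group sizes, so they could only count as the same. With 50 or more nuclei required per animal, cluster 16 and the label Perivascular macrophages gave no value, and with doublet calls left out cluster 18 gave none. The number of animals limits the permutation tests: 3 animals against 4 allow no p under 0.0571.

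With the sample number as a replicate block in place of batch, OTV:Malat1 minus Saline was called in 4 clusters (0, 2, 14 and 15), OTV:Malat1 minus anti-TfR:Malat1 in 3 (0, 2 and 15), and anti-TfR:Malat1 minus Saline in 0 labels. Deviations of samples that share a number had a median correlation of 0.048 over 21 pairs (-0.457 to 0.724), against 0.437 over 27 pairs of the same batch. The best match of a sample had its own number in 13 of 42 searches, so the numbers did not pair the animals.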

Other observations

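Besides Malat1, 3 genes were called in any fit by label or cluster, and they are named here after their values were seen. In the fit of the label Oligodendrocytes, OTV:Malat1 minus Saline was -1.96 for Saa3, an acute phase serum amyloid, and -1.82 for Slc35f2, a membrane transporter (log2, edgeR, SE 0.32 and 0.29, both adjusted p = 0.0493). That fit tested 14419 genes, and neither gene was called in any cluster. In cluster 17, the zinc finger gene Zfp804b was higher than in Saline with anti-TfR:Malat1 (0.73, SE 0.11, adjusted p = 0.00263) and with Malat1 ASO (0.73, SE 0.12, adjusted p = 0.00845). These comparisons share the Saline animals.

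Across the 19 clusters, the OTV:Malat1 change and the Saline level had a Pearson r of -0.78, a description over clusters that share libraries. The Saline animals enter both quantities, which by itself moves r below 0, and the size of that was not computed. Over the 11 neuron clusters alone r was 0.09.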
